A study of Mus musculus with 80 samples.

Results

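The collagen and laminin genes of the mouse brain were followed through the preparation and the sorting of microglia. Members were chosen by symbol alone, as every gene named Col with a number, the letter a and a number, or Lama, Lamb or Lamc with a number, and both count tables held the same 53 genes. These were 42 collagens and 11 laminins among 15919 genes in the sort comparison and 16000 genes in the preparation comparison. All brains came from mice labelled Cx3cr1(Jung)-cre/Ert2+;NuTRAP+, in which tamoxifen, injected on consecutive days at about 3 months of age, turned on eGFP-tagged ribosomes in cells that expressed Cx3cr1. Mice of both sexes were used, tissue was taken at 5 to 8 months per the study's methods, and no group without the transgenes or without tamoxifen was among the 80 libraries. The Cx3cr1 driver marks microglia, and it is also known to be active in macrophages at the borders of the brain and in circulating monocytes.

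Each preparation gave an Input library, the RNA before pulldown, and a TRAP library, the RNA that came down with an anti-GFP antibody against the tagged ribosomes. The sort comparison had 48 libraries. Tissue was homogenized whole brain tissue of 4 mice and Cell was a papain-digested suspension from the same 4 mice, and the 4 sorted groups were autoMACS (magnetic beads against CD11b, 4 mice), autoMACS to Tyto (3 of the same mice, sorted again), Tyto (cartridge flow sorting for CD11b, CD45 and eGFP, 5 mice) and FACSAria (cytometer flow sorting with the same gate, 4 mice). Tyto and FACSAria shared mice 69, 945 and 991, so libraries of different sorts were in part from the same animals. The preparation comparison had 32 libraries, 4 mice in each group. They were Tissue (further libraries of mice 946 to 949), Dounce (mechanical dissociation in the cold, with no enzyme) and Cell suspensions made without, (-), or with, (+), a mix of transcription and translation inhibitors.

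Collagens are secreted as a triple helix of alpha chains, each from its own gene, and fall into fibril-forming types, the network-forming type IV of basement membranes, the beaded filaments of type VI, fibril-associated types that sit on the surface of fibrils, and transmembrane types. Laminins are assembled from an alpha, a beta and a gamma chain and, with type IV collagen, form the basement membrane of brain vessels and of the pial surface. In the brain these genes are known mainly from endothelial cells, pericytes, smooth muscle cells, fibroblasts of the meninges and perivascular spaces, astrocytes and some neurons, and they are little known as products of microglia.

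Levels are given in CPM, counts scaled to a common library size after normalization within each table, since the tables were normalized separately, and levels of different genes are compared only as CPM per kilobase of exon. Values of Tissue, and of Cell in the sort comparison, are listed for mice 946, 947, 948 and 949, those of autoMACS for mice 66, 67, 72 and 73, of autoMACS to Tyto for 66, 67 and 73, of Tyto for 991, 69, 822, 823 and 945 and of FACSAria for 992, 69, 945 and 991. Cell (-) and (+) are listed for mice 156, 157, 1361 and 1362 and Dounce for 179 to 182. A difference is written as the log2 fold change ± its standard error. Tests within Input or within TRAP were scaled over the libraries of that fraction alone. A fold change can therefore differ from the ratio of the listed CPM. A member was called changed at an adjusted p under 0.1 and a fold change over 2 (edgeR quasi-likelihood test fitted over all genes, Benjamini-Hochberg adjustment).

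Total counts ran from 7129464 to 20168116 per library in the sort comparison and from 2471448 to 14650287 in the preparation comparison, where the Dounce-TRAP libraries were the lowest. The members took a small share of them, 0.0520% on average in Tissue-Input, 0.1823% in Cell-Input and 0.0654% to 0.0685% in the sorted Inputs, so that low members rest on few counts. The 8 microglial markers summed to 241 CPM in Tissue-Input, 4685 in Cell-Input and 29470 to 35990 in the sorted Inputs, on the side of the labels. The summed endothelial markers went from 59.2 CPM (52.1 to 64.9) in Tissue-Input to 1301 CPM (880 to 1657) in Cell-Input and 70.7 to 162 CPM in the sorted Inputs. The summed fibroblast markers went from 191 to 401 and then to 19.8 to 24.1 CPM, and the summed neuronal markers from 5476 to 650.5 and then to 14.0 to 29.2 CPM. The mural markers, those of pericytes and smooth muscle cells, went from 101 to 418 and then to 15.0 to 28.3 CPM, and the choroid plexus and ependymal markers from 795 to 3088 and then to 32.4 to 222 CPM. The 6 markers of border-associated macrophages, which the Cx3cr1 driver and the CD11b sorts can also take in, rose with the microglial ones, from 10.3 to 176 and then to 602 to 1068 CPM. In bulk libraries fewer cells of a type and less RNA per cell cannot be told apart, and the part of these marker levels in the results that follow was not tested.

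**Figure D1:**
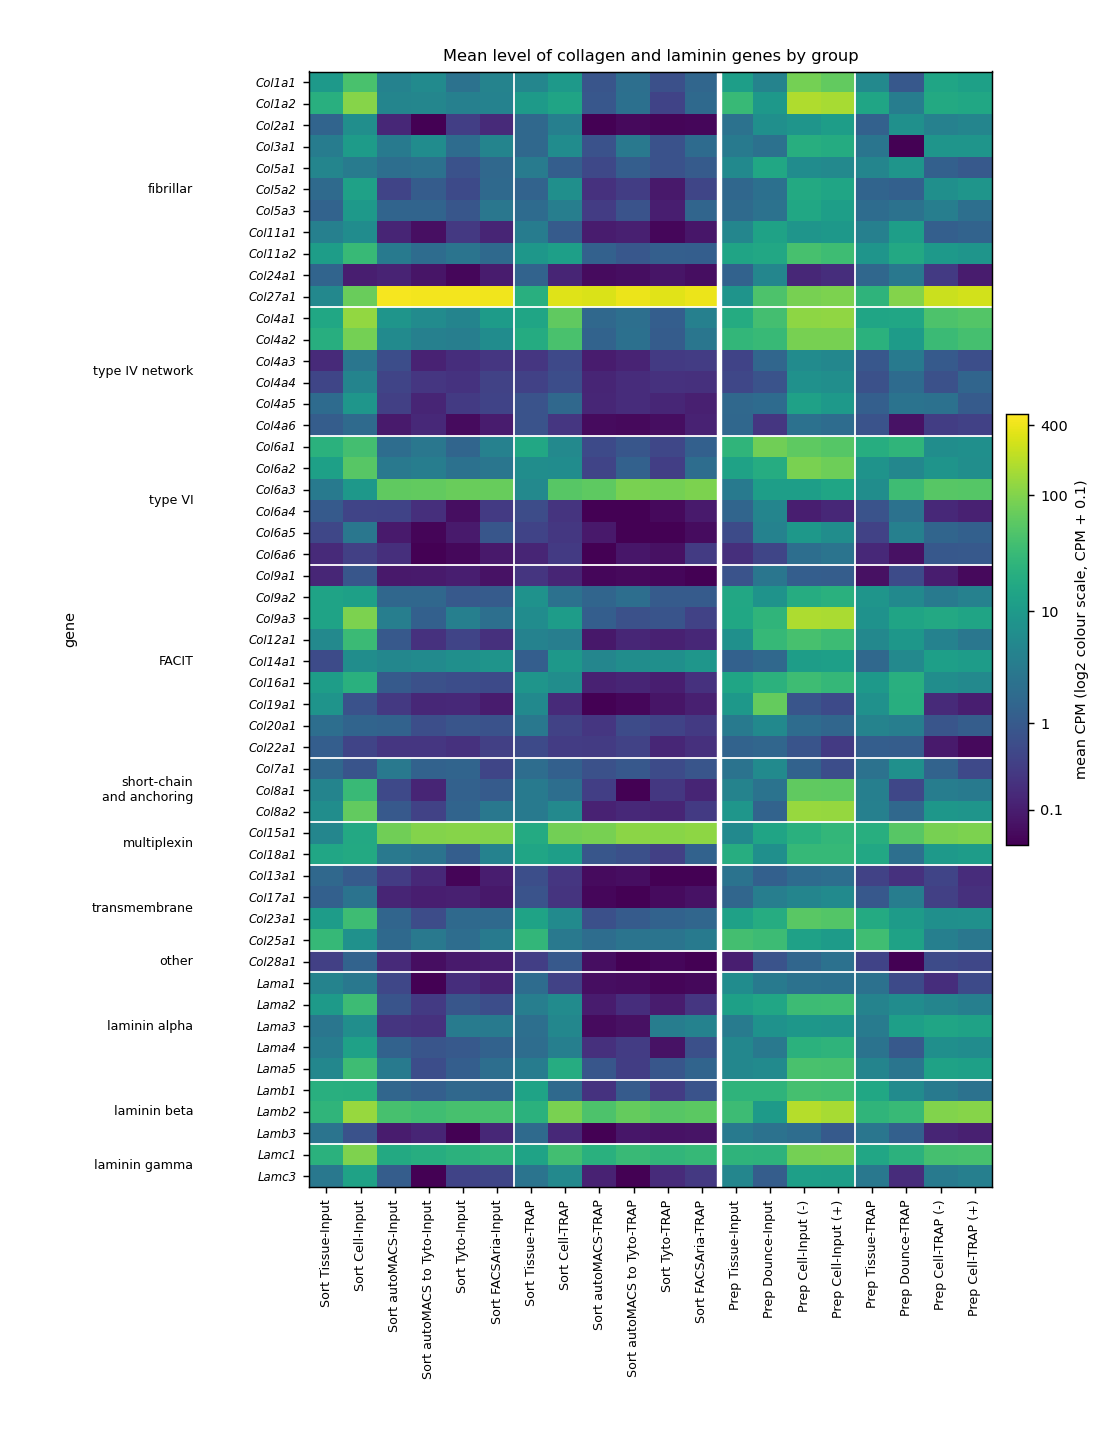
Heatmap of the mean level of 52 of the 53 collagen and laminin genes, as log2 of CPM + 0.1, in the 20 groups of libraries. Rows are genes ordered by role and columns are groups, Input then TRAP of the sort comparison and Input then TRAP of the preparation comparison. Most genes are higher in the Cell-Input column than in Tissue-Input and low in the columns of the sorted groups, where Col27a1, Col15a1, Col6a3, Lamb2 and Lamc1 stay visible.

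In the digested suspension most members stood above intact tissue. In Cell-Input as compared with Tissue-Input of the sort comparison, 34 of the 53 members were higher and 6 lower, with a median log2 fold change of 1.81, while 46% of all 15750 tested genes were called, 28.5% higher and 17.5% lower, with a median of 0.17. The higher members included 8 of 11 fibrillar collagens, 5 of 6 type IV chains, 4 of 6 type VI chains, 5 of 9 fibril-associated collagens, both type VIII chains and 7 of 11 laminins. In the preparation comparison, with other mice in the Cell groups, Cell-Input (-) had 35 higher and 6 lower members against Tissue-Input with a median of 1.57, where 44.7% of all genes were called, 25.6% higher and 19.1% lower.

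After sorting almost all members were low. As compared with Cell-Input, autoMACS-Input had 43 members lower and 4 higher, where 51.6% of all genes were called, 33.4% lower and 18.2% higher. autoMACS to Tyto-Input had 43 lower and 3 higher (all genes 50.6%, 33.7% lower and 16.9% higher). Tyto-Input had 48 lower and 3 higher (all genes 51.8%, 34.7% and 17.2%), and FACSAria-Input had 45 lower and 3 higher (all genes 51.1%, 34% and 17.1%). The medians of the members were -3.65, -4.16, -4.17 and -3.49, against -0.06 to -0.11 over all genes. These 4 comparisons share the same 4 Cell-Input libraries. The laminin chains named below and all 6 type IV chains were called lower in each of the 4 sorts, and Col27a1, Col15a1 and Col6a3 were called higher in each of them. Members at a mean of 5 CPM or more numbered 23 in Tissue-Input, 34 in Cell-Input and 6 to 9 in the sorted Inputs, and 4 to 15 members of a sorted Input group had at most 3 counts in every library.

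The members that stayed high in sorted cells are taken up first. Col27a1 (chr4:63215412-63334990, plus strand, mm10) encodes a fibril-forming collagen with a long helix that is best known from cartilage. Its levels were 5.51, 4.84, 5.76 and 4.92 CPM in Tissue-Input and 57.8, 82, 75.2 and 65.7 CPM in Cell-Input. They were 396, 368, 541 and 471 CPM in autoMACS-Input, 409, 464 and 430 CPM in autoMACS to Tyto-Input, 385, 425, 408, 499 and 453 CPM in Tyto-Input and 391, 406, 470 and 384 CPM in FACSAria-Input. The tissue, suspension and sorted libraries thus formed separate ranges for Col27a1, and the 4 sorts overlapped. The gain of Cell-Input over Tissue-Input was 14.3-fold (log2 3.84 ± 0.135, adjusted p = 1.03e-16), and that of autoMACS-Input over Cell-Input was 5.25-fold (log2 2.39 ± 0.121, adjusted p = 3.89e-14). In the other sorts the log2 fold change of Col27a1 over Cell-Input was 2.42, 2.38 and 2.34.

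Col15a1 (chr4:47208012-47313165, plus strand) encodes the core of a proteoglycan of basement membrane zones. It was measured at 3.63, 4.43, 6.68 and 4.70 CPM in Tissue-Input and at 13.3, 17.4, 18.8 and 17.8 CPM in Cell-Input. In the sorted Inputs Col15a1 reached 95.8, 77.2, 58.5 and 82.2 CPM after autoMACS, 104, 103 and 96.5 CPM after autoMACS to Tyto, 105, 99.3, 94.9, 117 and 109 CPM after Tyto and 102, 104, 109 and 99.4 CPM after FACSAria. Only libraries of autoMACS lay below 94.9 CPM, and no sorted library came down to the range of Cell-Input. The log2 fold change over Cell-Input was 1.97 ± 0.160 after autoMACS (adjusted p = 1.15e-10) and 2.38 to 2.40 after the other sorts.

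Col6a3 (chr1:90766860-90843971, minus strand) encodes the largest of the type VI chains. It went from 2.34, 3.95, 3.48 and 3.38 CPM in Tissue-Input to 8.76, 10.1, 9.56 and 9.07 CPM in Cell-Input. The 16 sorted Input libraries ran from 46.3 to 98.5 CPM with a median of 62, above every unsorted Input library of the sort comparison. The log2 fold change of Col6a3 over Cell-Input was 2.45 ± 0.223 after autoMACS (adjusted p = 8.63e-10), 2.55 after autoMACS to Tyto, 2.69 after Tyto and 2.65 after FACSAria.

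Lamb2 (chr9:108479862-108490530, plus strand), the laminin beta chain of vessels and synapses, and Lamc1 (chr1:153218922-153332786, minus strand), the gamma chain of most laminins, kept clear levels in sorted cells but below those of the suspension. Lamb2 was at 26.8, 30.0, 23.3 and 26 CPM in Tissue-Input and at 120, 128, 162 and 125 CPM in Cell-Input, and the 16 sorted Input libraries ran from 33.2 to 49.7 CPM with a median of 40.9. Lamc1 was at 21.5, 22.2, 23.4 and 25.1 CPM in Tissue-Input, at 100, 98.1, 102 and 79.4 CPM in Cell-Input and at 7.46 to 28.7 CPM, median 22.4, in the sorted Inputs. Every sorted library was thus above Tissue-Input for Lamb2, whereas for Lamc1 the sorted and tissue ranges overlapped. Against Cell-Input, the log2 fold changes over the 4 sorts were -1.89 to -2.09 for Lamb2 and -2.09 to -2.67 for Lamc1. The lowest Lamc1 value was the autoMACS library of mouse 72.

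Col14a1 (chr15:55307750-55520803, plus strand), a fibril-associated collagen, was the member that was not called against Cell-Input in any sort while it stayed at 5 CPM or more on average. It was at 0.293, 0.844, 0.886 and 0.392 CPM in Tissue-Input, at 5.22, 7.22, 7.06 and 6.06 CPM in Cell-Input and at 2.85 to 10.8 CPM, median 6.45, in the sorted Inputs. The log2 fold change of Col14a1 over Cell-Input ran from -0.58 ± 0.287 after autoMACS (adjusted p = 0.0721) to 0.12 ± 0.283 after FACSAria (adjusted p = 0.712).

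**Figure D2:**
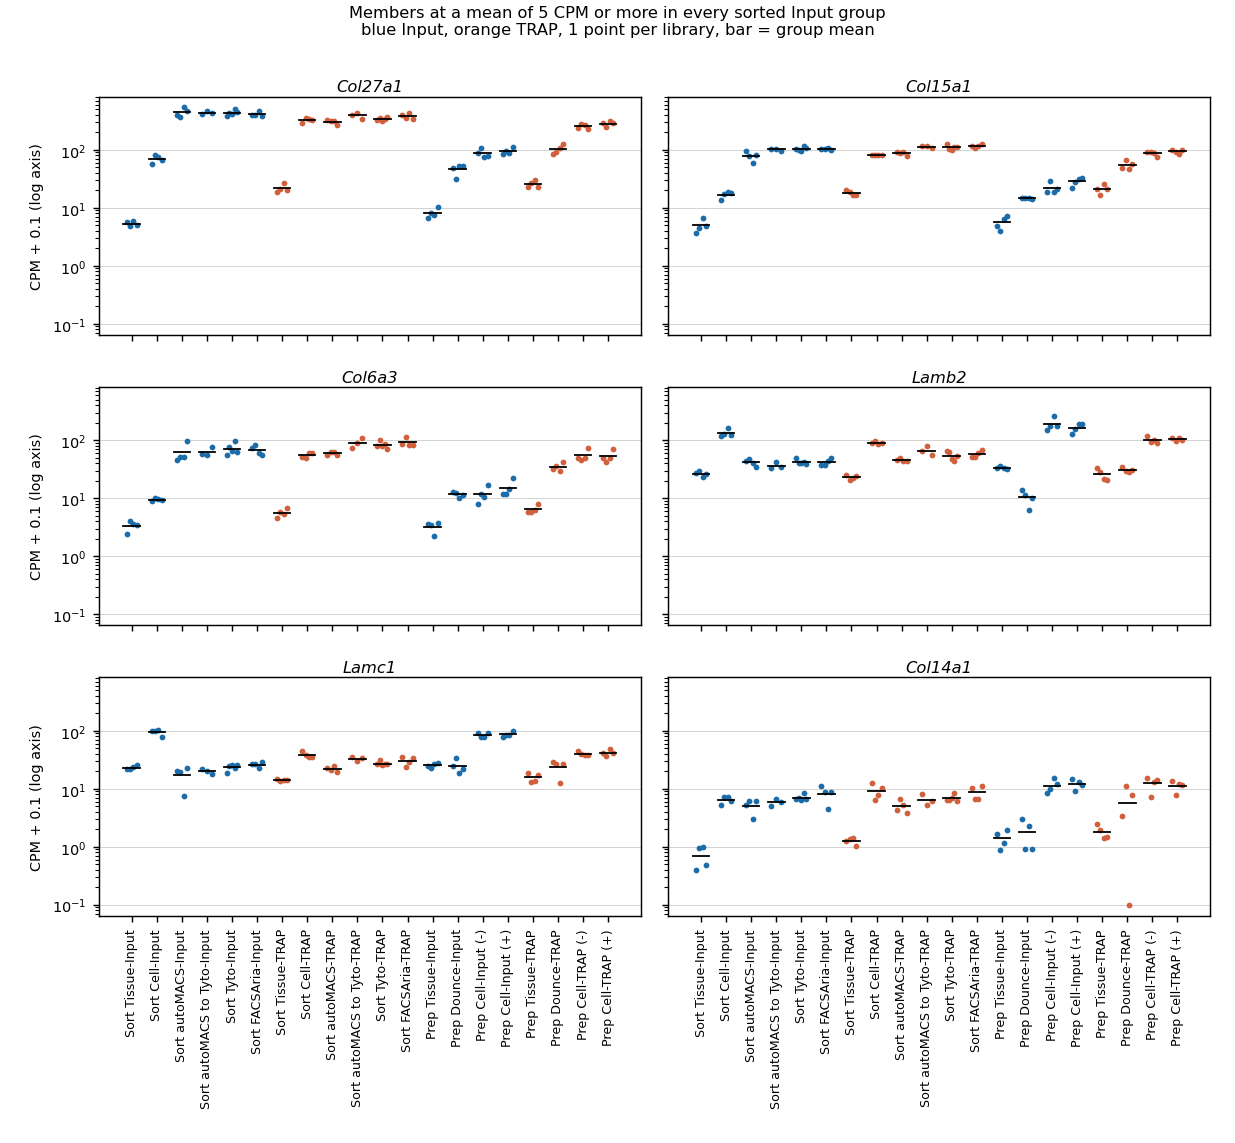
Level in CPM + 0.1, on a log axis, of Col27a1, Col15a1, Col6a3, Lamb2, Lamc1 and Col14a1 in all 20 groups, with 1 point for each Input (blue) and TRAP (orange) library and a bar at the group mean. In sorted Input libraries Col27a1 lies between 368 and 541 CPM and Col15a1 between 58.5 and 117 CPM, both above Cell-Input, while Lamb2 and Lamc1 lie below it.

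Per kilobase, the order in all 4 sorted Inputs was Col27a1, Col15a1, Lamb2, Col6a3 and Lamc1. In FACSAria-Input the means were 31.7 ± 3.02 (SD, n = 4), 16.3 ± 0.680, 6.92 ± 0.960, 5.75 ± 1.06 and 3.15 ± 0.312 CPM per kilobase, and of these neighbours Lamb2 and Col6a3 were the pair whose mean ± SD overlapped. In Tissue-Input the order was led by other genes, with Col6a1 at 5.31, Col9a2 at 4.47 and Lamb2 at 4.36, and in Cell-Input by Col9a3 at 24.4 ± 6.46, Lamb2 at 22.0 ± 3.17 and Col4a1 at 16.9 ± 3.44, which overlapped within their SDs. Col27a1, Col15a1 and Col6a3 made up 3.41% of the members' summed CPM in Tissue-Input, 7.30% in Cell-Input and 79.3% to 83.3% in the sorted Inputs.

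Col27a1 and Col15a1 were high in the ribosome pulldown as well. In Tissue-TRAP Col27a1 stood at 18.4, 21.0, 26.2 and 20.4 CPM, above every Tissue-Input library, a log2 difference from Tissue-Input of 2.03 ± 0.128 (adjusted p = 1.11e-17). Col15a1 stood at 20.1, 18.8, 16.8 and 16.4 CPM in Tissue-TRAP, a log2 difference of 1.89 ± 0.129 (adjusted p = 1.98e-16). Those were the 2 members called higher in Tissue-TRAP than in Tissue-Input, where 5 were called lower and 11.1% of all genes were called, 9.23% higher and 1.87% lower. Col6a3 missed the fold threshold there at log2 0.73 ± 0.222 and passed it narrowly in the preparation comparison (10.5% of all genes called) at 1.01. It missed the threshold there without the Input library of mouse 948 (0.86) or the TRAP library of mouse 949 (0.89). It also missed it with DESeq2 size factors (0.98), the DESeq2 Wald test (0.99) and at least 10 counts in every library (0.9). With the mouse as a block 10 members rather than 5 were lower in Tissue-TRAP, the added ones being Col4a5, Col3a1, Col22a1, Col6a2 and Col8a2.

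In the TRAP of sorted cells, averaged over the 4 sorts, 4 collagens and Lamb2 were called above Tissue-TRAP and 41 of 49 tested members below it, with a member median of -3.05 and 62.8% of all genes called, 25.9% higher and 36.9% lower. The higher ones were Col27a1 at log2 4.02 ± 0.103 (adjusted p = 6.97e-22), Col6a3 at 3.85 ± 0.143, Col15a1 at 2.55 ± 0.0735, Col14a1 at 2.47 ± 0.233 and Lamb2 at 1.25 ± 0.107. With DESeq2 size factors Lamb2 was at 0.91 and no longer called. Against Cell-TRAP, the sorted TRAP had 37 of 49 members lower and 0 higher, where 24.4% of all genes were called, 23.6% lower and 0.836% higher. Col27a1 differed there by log2 0.09 ± 0.0763 (adjusted p = 0.338), and Col15a1 at 0.35 ± 0.0613, Col6a3 at 0.51 ± 0.106, Lamc1 at -0.49 ± 0.0874 and Lamb2 at -0.73 ± 0.0914 stayed inside the fold threshold. In a sorted TRAP group 13 to 18 members had at most 3 counts in every library, so many lower calls rest on few counts.

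Type IV collagen forms the sheet of every basement membrane, and its chains are encoded in pairs that are transcribed away from each other. In the annotation of the count tables the Col4a1 and Col4a2 genes (chromosome 8) lay head to head 3 bp apart, Col4a4 and Col4a3 (chromosome 1) 72 bp apart and Col4a6 and Col4a5 (chromosome X) 1343 bp apart. The promoter windows of Col4a1 and Col4a2 are shown because these 2 chains, which assemble with each other, rose together in the suspension and fell together in sorted cells, as the values below show. They are RefSeq windows of 300 bases around the gene start on GRCm38.p6, Col4a1 on the minus strand at chr8:11312777-11313076 and Col4a2 on the plus strand at chr8:11312555-11312854, with CCAAT and GGGCGG, or their reverse complements, in capitals.
Col4a1: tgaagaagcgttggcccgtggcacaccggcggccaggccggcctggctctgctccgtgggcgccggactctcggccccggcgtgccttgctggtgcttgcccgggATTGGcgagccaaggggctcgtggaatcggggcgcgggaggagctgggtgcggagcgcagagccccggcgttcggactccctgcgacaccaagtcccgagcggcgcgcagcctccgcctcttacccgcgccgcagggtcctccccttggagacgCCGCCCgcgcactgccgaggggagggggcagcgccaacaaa
Col4a2: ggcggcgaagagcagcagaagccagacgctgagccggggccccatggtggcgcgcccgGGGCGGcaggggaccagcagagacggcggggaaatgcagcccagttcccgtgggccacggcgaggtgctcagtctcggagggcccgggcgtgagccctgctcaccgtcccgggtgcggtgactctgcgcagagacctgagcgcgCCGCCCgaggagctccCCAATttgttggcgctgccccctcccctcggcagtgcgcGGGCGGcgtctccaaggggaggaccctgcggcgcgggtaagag
The windows overlap by 78 bases (chr8:11312777-11312854). Col4a1 held CCAAT 1 time and GGGCGG 1 time, and Col4a2 held them 1 time and 3 times, counted on both strands with no overlap between the motifs. The GGGCGG of Col4a1 lay in the shared bases and was also 1 of the 3 counted for Col4a2. Of all 32851 promoter windows from RefSeq, 37.4% held CCAAT and 35.7% GGGCGG, and of the 43 windows that matched 39 members 32.6% and 60.5% did.

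Col4a1 was measured at 15.4, 13.4, 15.4 and 18.6 CPM in Tissue-Input, at 89.1, 131, 149 and 134 CPM in Cell-Input and at 1.93 to 20 CPM, median 5.96, in the sorted Inputs. Col4a2 was measured at 22.4, 18.7, 17.5 and 25.5 CPM in Tissue-Input, at 60.5, 86.9, 104 and 83.2 CPM in Cell-Input and at 1.64 to 10.2 CPM, median 4.26, in the sorted Inputs. For both chains the Cell-Input libraries stood apart from all others, and the highest sorted value was the FACSAria library of mouse 991. Col4a1 rose by log2 3.10 ± 0.353 and Col4a2 by 2.09 ± 0.345 from Tissue-Input to Cell-Input (adjusted p = 5.06e-08 and 1.15e-05), and from there to the 4 sorts their log2 fold changes were -3.78 to -5.04 and -3.97 to -4.77.

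The ratio of Col4a1 to Col4a2 per kilobase separated the preparations. It was 0.669 ± 0.0771 (0.611 to 0.782, n = 4) in Tissue-Input and 1.34 ± 0.0676 (1.27 to 1.43) in Cell-Input, and in the preparation comparison 0.595 ± 0.0778 in Tissue-Input, 1.20 ± 0.0351 in Cell-Input (-) and 1.26 ± 0.0342 in Cell-Input (+). The 3 suspension groups did not overlap with the 2 tissue groups. TRAP gave the same order, with 0.712 in Tissue-TRAP and 1.30 in Cell-TRAP of the sort comparison. The Dounce-Input ratio, 1.10 ± 0.28 (0.763 to 1.35), overlapped with the suspensions and with Tissue-Input of the sort comparison, and lay above Tissue-Input of its own table. No test was run on these ratios.

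The remaining type IV chains were low in tissue. Col4a3 was at 0 to 0.293 CPM in Tissue-Input and at 2.76, 2.46, 2.49 and 3.18 CPM in Cell-Input, a log2 fold change of 4.00 ± 0.637 (adjusted p = 7.02e-06). Col4a4 rose by 3.30 ± 0.446 and Col4a5 by 2.3 ± 0.529, and Col4a6 did not pass the test at 0.77 ± 0.575 (adjusted p = 0.237). In the sorted Inputs the highest library of Col4a3, Col4a4 and Col4a5 was at 1.15, 1.02 and 1.27 CPM, and 15 of 16 libraries of Col4a6 had at most 3 counts.

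**Figure D3:**
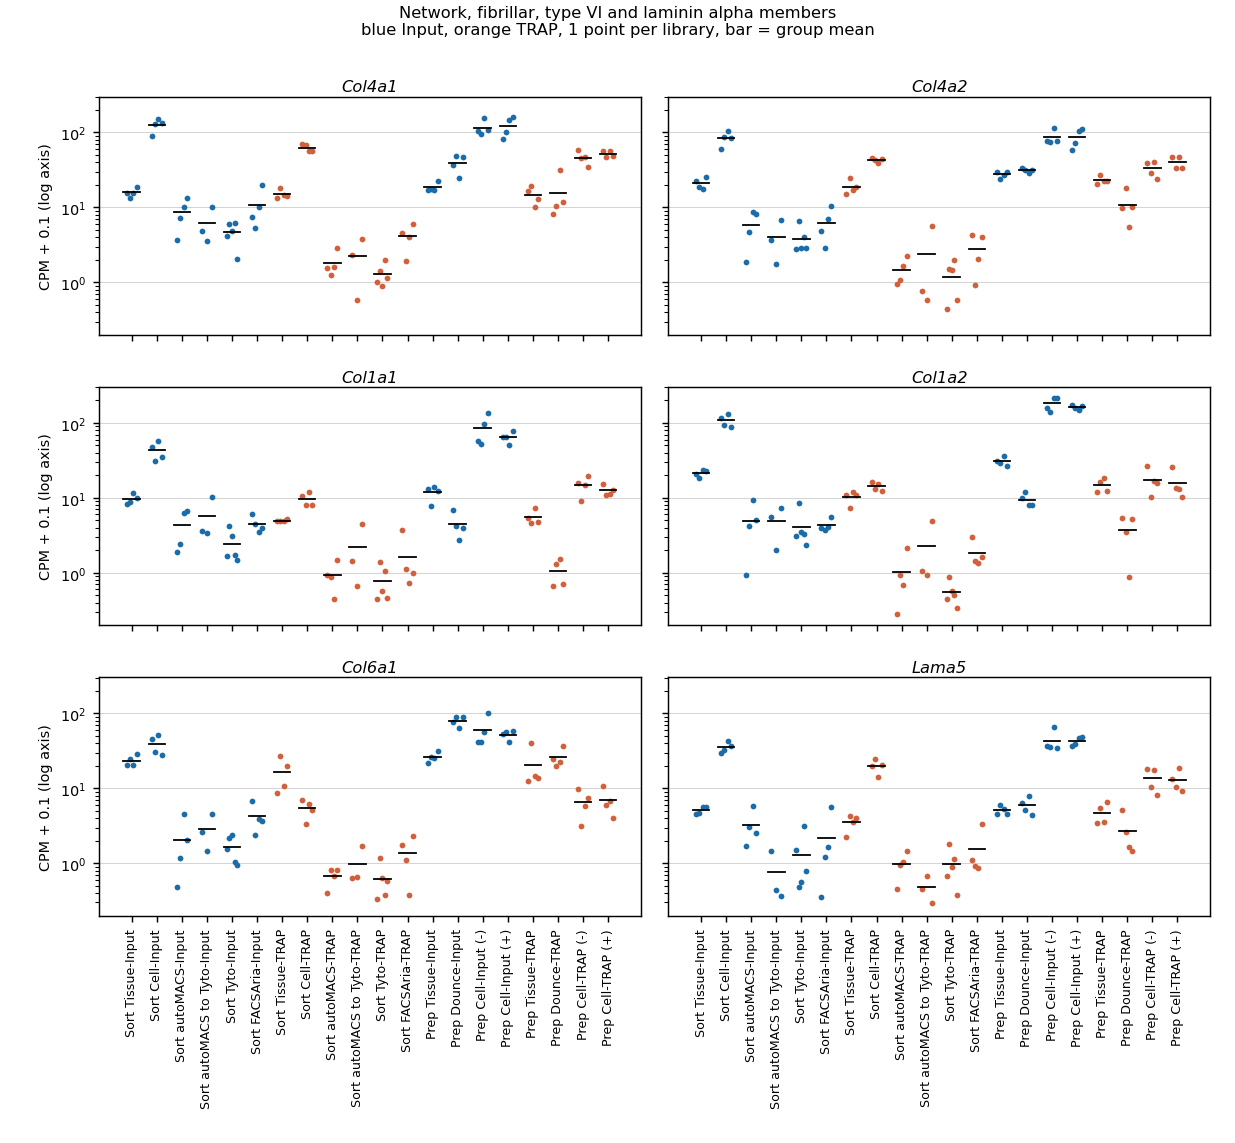
Level in CPM + 0.1, on a log axis, of Col4a1, Col4a2, Col1a1, Col1a2, Col6a1 and Lama5 in the Input (blue) and TRAP (orange) libraries of all 20 groups, with 1 point for each library and a bar at the group mean. Among the groups of the sort comparison Cell-Input is the highest for Col4a1 and Col4a2, and the 16 sorted Input libraries of Col4a1 lie between 1.93 and 20 CPM.

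The laminin alpha chains, which bind the cell receptors, moved mostly with type IV collagen. Lama5 and Lama4 are the alpha chains of the endothelial basement membrane, Lama2 is known from astrocytes, Lama1 from the pia and Lama3 from epithelia. Lama5 went from 4.39, 4.64, 5.56 and 5.49 CPM in Tissue-Input to 29.2, 32.7, 43.2 and 36.5 CPM in Cell-Input (log2 2.91 ± 0.483, adjusted p = 1.23e-05) and to 0.253 to 5.73 CPM, median 1.38, in the sorted Inputs. Lama4 went from 2.83, 3.31, 4.27 and 3.70 CPM to 12.3, 12.9, 16 and 11.6 CPM (log2 2.00 ± 0.364, adjusted p = 3.91e-05) and to 0.253 to 2.70 CPM, median 1.12. Lama2 went from 10.0, 11.6, 9.36 and 10.7 CPM to 37.7, 34.7, 34.1 and 28.7 CPM (log2 1.79 ± 0.331, adjusted p = 4.77e-05) and to at most 1.53 CPM after sorting. For all 3 the Cell-Input libraries were above every tissue library, and the sorted libraries were below tissue for Lama4 and Lama2 and overlapped with it for Lama5.

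Lama1 and Lamb1, the beta chain of most laminins, were not called there. Lama1 was at 5.15, 5.18, 3.82 and 3.70 CPM in Tissue-Input and at 3.78, 2.25, 3.04 and 2.68 CPM in Cell-Input, a difference of log2 -0.51 ± 0.543 that did not pass the test (adjusted p = 0.415), and 11 of 16 sorted Input libraries had at most 3 counts. In the preparation comparison Lama1 was lower in Cell-Input (-) at log2 -1.54 ± 0.344 (adjusted p = 0.000506). Lamb1 was at 22.2, 19.4, 22.3 and 21.4 CPM in Tissue-Input and at 25.7, 9.88, 21.9 and 24.4 CPM in Cell-Input, where mouse 947 stood below the other 3, and its log2 fold change was 0.04 ± 0.381 (adjusted p = 0.93). In the sorts Lamb1 was at 0.308 to 3.28 CPM, with log2 fold changes of -3.86 to -4.36 from Cell-Input.

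Lamb3, a beta chain known from epithelia and at 2.00 to 3.12 CPM in tissue, fell by 1.63 ± 0.628 (adjusted p = 0.0268). Its call in autoMACS to Tyto-Input against Cell-Input was lost without the library of mouse 67 (adjusted p = 0.103). Lama3 instead was higher in Cell-Input, at 6.39, 6.68, 7.54 and 5.81 CPM against 2.63, 2.65, 2.60 and 3.13 CPM (log2 1.36 ± 0.674, adjusted p = 0.0764), a call that was lost without any of the 8 libraries (adjusted p = 0.1 to 0.137). Lamc3, a gamma chain known from the pial surface and the retina, rose from 2.52, 3.08, 3.43 and 2.82 CPM to 12.8, 11.2, 16 and 13.1 CPM (log2 2.26 ± 0.383).

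The levels of Lama3 went with the mouse. In the sorted libraries of mice 66, 67, 69, 72 and 73, Input and TRAP alike, it had 0 to 6 counts, and in those of mice 822, 823, 945, 991 and 992 it was at 2.31 to 7.01 CPM. The Cell-TRAP libraries of mouse 1362 were at 40.9 and 45.7 CPM and its Cell-Input libraries at 14.6 and 14.9 CPM, and the Cell-TRAP libraries of mice 156, 157 and 1361 at 2.11 to 6.74 CPM. The low and the higher sorted mice were thus the same in Input and TRAP and, for mouse 69, in both flow sorts, while mouse 1362 was high in both fractions and higher in TRAP. The tests of Lama3 between sorts and Cell-Input ran from log2 -1.20 ± 0.633 for Tyto (adjusted p = 0.0876) to -4.91 ± 1.05 for autoMACS to Tyto. They rest on mice that the sorts share only in part. The mice of autoMACS and of autoMACS to Tyto were all among the low ones, so mouse and sort cannot be told apart there. The Lama3 calls of Tyto (-1.20) and FACSAria (-1.31) were both lost without the library of mouse 69, at -0.89 (adjusted p = 0.125) and -0.91 (adjusted p = 0.207), and without most other libraries.

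**Figure D4:**
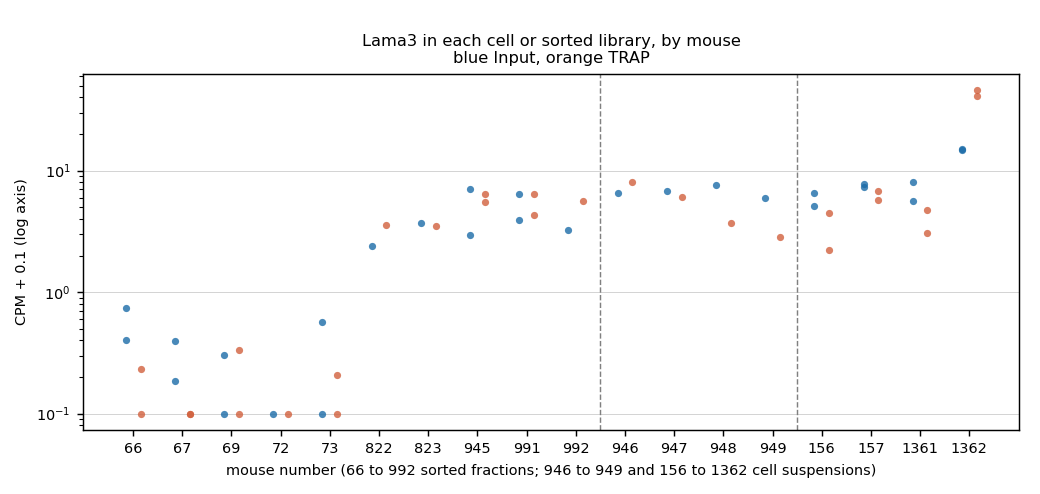
Lama3 in CPM + 0.1, on a log axis, for each mouse, with 1 point for each Input (blue) or TRAP (orange) library of suspensions and sorted cells. Sorted libraries of mice 66, 67, 69, 72 and 73 lie near 0, those of mice 822, 823, 945, 991 and 992 between 2.31 and 7.01 CPM, and the Cell-TRAP libraries of mouse 1362 at 40.9 and 45.7 CPM.

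Sorted cells held Lamb2 and Lamc1 RNA with little RNA of the alpha chains. The 5 laminin alpha chains summed to 26.2 CPM in Tissue-Input, 91.9 CPM in Cell-Input and 2.06 to 7.36 CPM on average in the sorted Inputs. Without Lama3, the sum was 3.25 rather than 6.61 CPM after Tyto and 4.21 rather than 7.36 CPM after FACSAria, and was 1.82 and 5.86 CPM after autoMACS to Tyto and autoMACS. Per kilobase, their sum divided by Lamc1 was 0.752 ± 0.0499 in Tissue-Input and 0.630 ± 0.0649 in Cell-Input. It was 0.0695 ± 0.0272 after autoMACS to Tyto, 0.209 ± 0.0952 after Tyto and 0.2 ± 0.142 after FACSAria, and autoMACS spread from 0.0958 to 0.979, the highest being mouse 72 with its low Lamc1. Without Lama3, an alternative chosen after seeing the data, the ratio was 0.66 in Tissue-Input, 0.576 in Cell-Input, 0.061 after autoMACS to Tyto, 0.0968 after Tyto and 0.109 after FACSAria. After autoMACS it was 0.353 ± 0.419 and spread from 0.0843 to 0.979, across the values of tissue and suspension. Lamb2 over Lamc1 was 1.57 in Tissue-Input, 1.93 in Cell-Input and 2.21 to 3.96 in the sorted Inputs.

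Col18a1, the other multiplexin and the precursor of endostatin, parted from Col15a1. It was at 15.3, 12.6, 19.6 and 13.4 CPM in Tissue-Input and at 19.2, 11.1, 21.5 and 18.5 CPM in Cell-Input, ranges that overlapped (log2 0.31 ± 0.351, adjusted p = 0.442). The sorted Inputs ran from 0.770 to 7.13 CPM with a median of 1.88, and the log2 fold changes of Col18a1 from Cell-Input were -2.26 to -4.17.

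Among the fibrillar collagens, type I forms the bulk of connective tissue fibrils and type III accompanies it in vessel walls. Col1a1 was at 8.25, 8.64, 11.3 and 9.82 CPM in Tissue-Input, at 48.3, 30.7, 57.5 and 35 CPM in Cell-Input and at 1.39 to 10.3 CPM, median 3.44, in the sorted Inputs. Col1a2 was at 20.5, 18.3, 23.6 and 22.9 CPM, at 116, 94.5, 133 and 88.2 CPM and at 0.832 to 9.14 CPM, median 3.93. Col3a1 was at 3.81, 3.68, 3.29 and 3.26 CPM, at 14.0, 5.83, 14.2 and 8.15 CPM and at 0.529 to 9.39 CPM, median 3.23. Cell-Input lay above tissue in every library of the 3 genes, and the log2 fold changes were 2.27 ± 0.353, 2.43 ± 0.352 and 1.68 ± 0.467. Col1a1 and Col1a2 were called lower in all 4 sorts, at -3.15 to -4.46 and -4.74 to -5.03, whereas Col3a1 was called in 3 of them and stood inside the fold threshold at -0.98 ± 0.513 after autoMACS to Tyto (adjusted p = 0.0885).

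The other fibrillar chains were smaller in level. Col5a2, Col5a3, Col2a1 and Col11a2 were called higher in Cell-Input, at log2 2.90, 2.87, 2.31 and 1.51, and Col5a1 and Col11a1 (0.71) were not called. Col24a1 was called lower at -3.55 ± 0.708, from 0.683 to 2.57 CPM in tissue to at most 0.268 CPM in the suspension, and all 16 sorted Input libraries had at most 3 counts of it.

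Type VI chains assemble into heterotrimers of alpha 1, alpha 2 and a longer chain. Col6a1 was at 20.1, 24.4, 20.2 and 28.3 CPM in Tissue-Input and at 46, 30.5, 52.1 and 27.9 CPM in Cell-Input, groups that overlapped, and its log2 difference of 0.85 ± 0.350 was inside the fold threshold (adjusted p = 0.0349). Col6a2 went from 11.5, 14.6, 10.3 and 14.1 CPM to 60.4, 49.7, 73.3 and 34.7 CPM and rose by 2.21 ± 0.376 (adjusted p = 1.75e-05). After sorting Col6a1 ran from 0.378 to 6.69 CPM and Col6a2 from 0.873 to 5.37 CPM, opposite in direction to Col6a3. Per kilobase Col6a3 was 0.0522 times Col6a1 in Tissue-Input, 0.0942 times in Cell-Input, 4.07 times in Cell-TRAP and, as group means, 7.21 to 21.3 times in the sorted Inputs. Col6a5 (2.48) and Col6a6 (1.28) were called higher in Cell-Input, and Col6a4 was at -0.96, and -1.04 with the mouse as a block (adjusted p = 0.0352), at few counts. The adjusted p of Col6a6 was over the threshold without the Cell-Input library of mouse 946 or the Tissue-Input library of mouse 947 or 949. With the DESeq2 Wald test it was also over it (adjusted p = 0.187).

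Among the fibril-associated collagens, Col9a3, a chain of type IX, went from 16.4, 14.0, 13.3 and 11.3 CPM in Tissue-Input to 115, 57.9, 99.4 and 104 CPM in Cell-Input (log2 2.87 ± 0.448, adjusted p = 5.43e-06) and to at most 7.25 CPM after sorting. Its partner Col9a2 was at 12.3 to 15.7 CPM in tissue and 7.59 to 16.4 CPM in the suspension and did not pass the test at -0.04. Col12a1 rose from 5.18 to 5.94 CPM to 20.4 to 44.9 CPM (2.67 ± 0.348), Col9a1 by 2.56, and Col16a1 by 1.05. The call of Col16a1 was lost with the mouse as a block (0.89) and without the Cell-Input library of mouse 948 (0.86). It was also lost with DESeq2 size factors and with the DESeq2 Wald test (0.96 in each). Col22a1 (-1.21 ± 0.565) was lower, a call that did not hold without the Cell-Input library of mouse 947, 948 or 949 or the Tissue-Input library of mouse 947 or 948 (-1.04 to -1.19), and Col20a1 was not called.

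Type VIII collagen, the short-chain network of vessels and the cornea, gave large folds in both directions. Col8a2 went from 6.78, 6.16, 7.14 and 5.53 CPM in Tissue-Input to 73.1, 36.6, 82.8 and 65.1 CPM in Cell-Input, 10.8-fold (log2 3.43 ± 0.594, adjusted p = 2.12e-05). Its partner Col8a1 went from 3.82 to 5.24 CPM to 35.5, 12.8, 43.9 and 37 CPM (2.91 ± 0.617). In both genes mouse 947 was the lowest suspension and still above every tissue library. After FACSAria, Col8a2 was at 0.379, 0.402, 0 and 11.1 CPM and Col8a1 at 0, 0.301, 0.188 and 3.78 CPM, so that the library of mouse 991 held most of the signal. The summed choroid plexus and ependymal markers ranged from 12.1 to 622.5 CPM over the same 4 libraries, and their part in it was not tested. Col7a1, the anchoring fibril collagen, was at -0.87 in Cell-Input against Tissue-Input, and at -1.01 with the mouse as a block (adjusted p = 0.0125). It was called higher than Cell-Input after autoMACS, at 1.53 ± 0.605 (adjusted p = 0.0256), and was at 0.53, 0.59 and -0.92 in the other sorts. Without the autoMACS library of mouse 72, Col7a1 was at 0.73 (adjusted p = 0.238).

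Of the 4 transmembrane collagens 1 was called higher and 1 lower in Cell-Input. Col25a1, a neuronal collagen whose shed part is found in amyloid plaques, was at 32.2, 27.8, 28.8 and 31.1 CPM in Tissue-Input and at 9.41, 7.80, 8.32 and 4.17 CPM in Cell-Input, and it fell by 1.92 ± 0.218 (adjusted p = 4.93e-08) with no overlap. The sorted Inputs ran from 1.33 to 4.72 CPM. Col23a1 instead went from 10.2, 9.93, 10.1 and 13.3 CPM to 42.3, 20.8, 50.0 and 29.5 CPM (1.81 ± 0.294). Col17a1 (1.06, adjusted p = 0.104) and Col13a1 were not called. Col28a1, a beaded-filament type with few counts, was called higher at 1.9. Col19a1, a fibril-associated collagen made by interneurons, joined Col25a1 among the fallen. It was at 8.68, 7.51, 7.15 and 9.16 CPM in tissue and at 1.17, 0.890, 0.0895 and 0.894 CPM in the suspension, and fell by 3.32 ± 0.676 (adjusted p = 0.000145), and 13 of 16 sorted Input libraries had at most 3 counts. The summed neuronal markers fell in the same libraries, as given above, and their part in these values was not tested.

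Cold mechanical dissociation moved fewer members than the digested suspension. The study reports that Dounce-Input had the lowest RNA integrity and yield. It also reports a stronger bias toward the transcript end in Tissue and Dounce libraries than in Cell libraries. The suspensions also differed in temperature and debris removal. The part of these factors in the levels and per-kilobase ratios was not tested. Dounce-Input as compared with Tissue-Input had 21 members higher and 7 lower with a median log2 fold change of 0.68, where 50.1% of all genes were called, 28.7% higher and 21.4% lower, with a median of 0.10. Of the 42 collagens 20 were higher and 5 lower, and of the 11 laminins 1 was higher and 2 lower. As compared with Cell-Input (-), Dounce-Input had 11 members higher and 24 lower, with 56.8% of all genes called, 28.8% higher and 28.1% lower, and all 6 type IV chains were among the lower, Col4a2 at -1.10 ± 0.180 and, without the Cell-Input (-) library of mouse 1361, at -0.93 and not called. The 2 comparisons share the Dounce-Input libraries.

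Col19a1 was the extreme member. It was at 12.9, 5.78, 9.30 and 9.10 CPM in Tissue-Input of the preparation comparison, at 63.8, 59.6, 66.4 and 76.7 CPM in Dounce-Input and at 0.431, 0.502, 0.998 and 1.46 CPM in Cell-Input (-). The 3 groups did not overlap, and Dounce-Input exceeded tissue by log2 3.04 ± 0.275 (adjusted p = 6.69e-09) and the suspension by 6.59 ± 0.366 (adjusted p = 5.66e-12). In Dounce-TRAP Col19a1 was at 15.5, 22.3, 27.6 and 16.8 CPM against 5.06, 8.63, 6.04 and 9.36 CPM in Tissue-TRAP (1.55 ± 0.372). Col25a1 overlapped with its tissue range, with 37.6, 44.1, 32.7 and 24.7 CPM in Dounce-Input, 42.4, 41.7, 37.4 and 36.2 CPM in Tissue-Input and 11.7, 10.5, 14.5 and 15.9 CPM in Cell-Input (-). The log2 difference of Col25a1 from tissue was 0.04 ± 0.17 under the separate scaling of the Input fit. Col24a1 rose by 2.04 ± 0.541 over tissue, to 2.43 to 9.10 CPM. The summed neuronal markers, which pool several kinds of neuron, were at 7377 CPM in Tissue-Input, 2976 CPM in Dounce-Input and 564.5 CPM in Cell-Input (-). Their part in these values was not tested.

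The type VI chains were called above tissue in Dounce-Input apart from Col6a2, which was at 0.74 ± 0.239. The call of Col6a6 (1.27) was lost without the Dounce-Input library of mouse 179 or 180 or the Tissue-Input library of mouse 946, 947 or 949 (adjusted p = 0.119 to 0.194). Col6a1 was at 77, 90.4, 63.2 and 88.5 CPM in Dounce-Input against 21.7, 25.7, 25.3 and 31.8 CPM in Tissue-Input (1.82 ± 0.229, adjusted p = 6.15e-07) and 41.9, 41.8, 55.5 and 100 CPM in Cell-Input (-). Col6a1 over Col6a2 per kilobase was 8.11 ± 2.38 in Dounce-Input, 3.70 ± 0.684 in Tissue-Input and 1.24 ± 0.0545 in Cell-Input (-). Col27a1 reached 48, 31.7, 51.9 and 52.1 CPM against 6.48, 7.95, 7.28 and 10.3 CPM in tissue (2.73 ± 0.186, adjusted p = 1.15e-10), Col6a3 rose by 2.08 ± 0.277 and Col15a1 by 1.59 ± 0.2. None of these 3 was called between Dounce-Input and Cell-Input (-), at -0.60 ± 0.162, 0.32 ± 0.252 and -0.24 ± 0.183.

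Col8a2, Col1a2 and Lamb2 were among the members called lower in Dounce-Input than in tissue. Col8a2 was at 0.743, 0.497, 2.50 and 1.93 CPM in Dounce-Input, at 9.26, 7.29, 10.8 and 7.36 CPM in Tissue-Input and at 92.5, 119, 175 and 151 CPM in Cell-Input (-), log2 -2.61 ± 0.346 against tissue (adjusted p = 1.31e-06) and -6.41 ± 0.306 against the suspension. Col1a2 was at 9.81, 11.7, 7.97 and 7.99 CPM in Dounce-Input, at 30.9, 28.8, 36.5 and 26.7 CPM in Tissue-Input and at 158, 139, 216 and 216 CPM in Cell-Input (-). Lamb2 was at 13.7, 11.4, 6.21 and 10.2 CPM in Dounce-Input, at 33.4, 36.3, 33.4 and 31.7 CPM in tissue (-1.45 ± 0.203, adjusted p = 2.52e-06) and at 153, 175, 260 and 175 CPM in Cell-Input (-). In all 3 genes the Dounce libraries were the lowest. Col1a1 (-1.16 ± 0.325), Col18a1 (-1.34 ± 0.186), Lamc3 (-1.96 ± 0.326) and Col4a6 (-2.13 ± 0.476) were also below tissue, while Col4a1 was above it at 1.30 ± 0.233 and Col4a2 was not called at 0.39 ± 0.184. The summed fibroblast markers were at 242 CPM in Tissue-Input, 40.3 CPM in Dounce-Input and 670 CPM in Cell-Input (-), the endothelial ones at 78.5, 35.6 and 1730 CPM and the choroid plexus and ependymal ones at 1239, 118 and 9301 CPM. Their part in these differences was not tested.

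**Figure D5:**
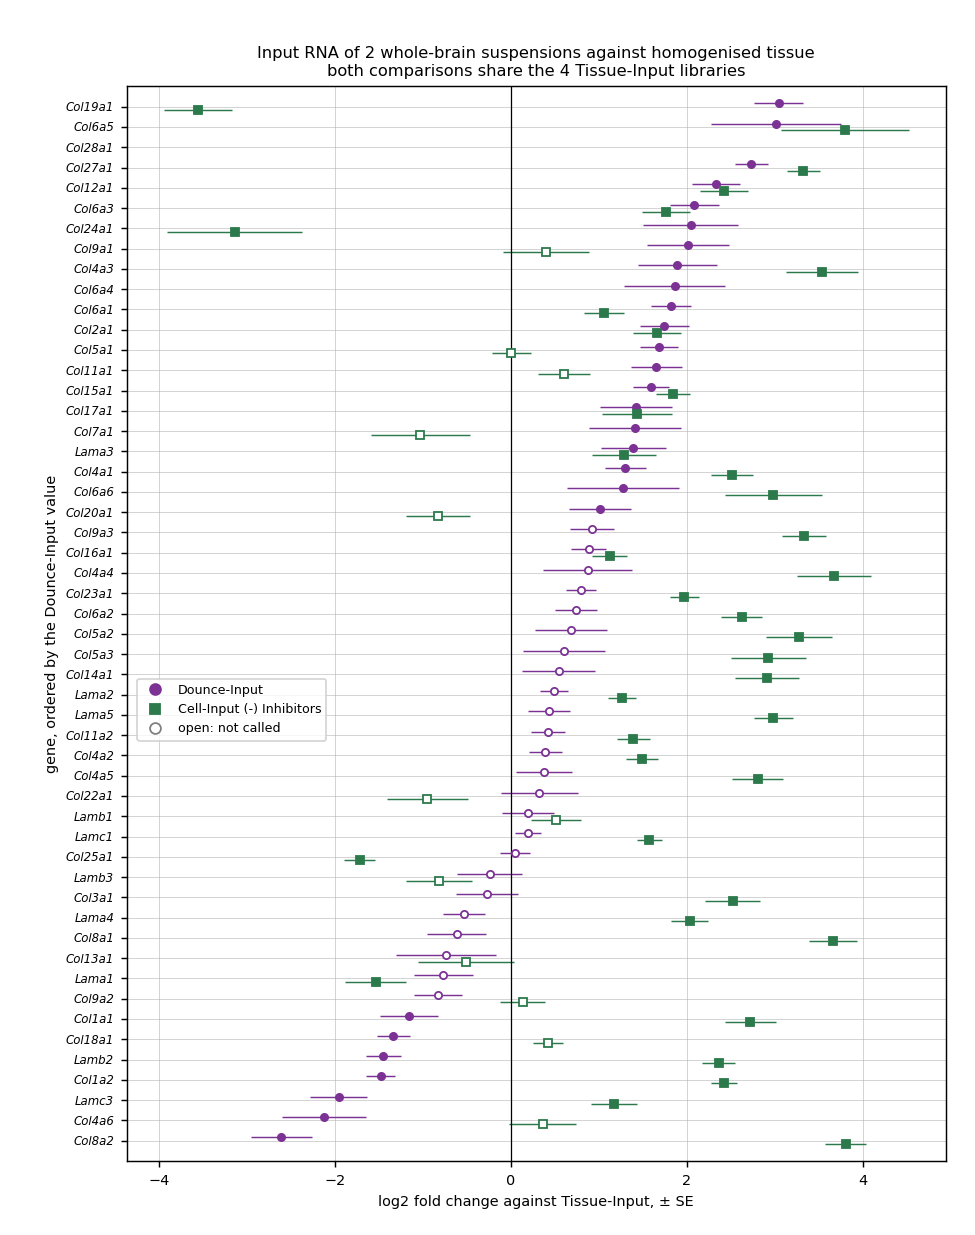
Log2 fold change over Tissue-Input ± its standard error (horizontal axis) in Dounce-Input (purple circles) and in Cell-Input (-) Inhibitors (green squares) of the preparation comparison, with 1 line for each of 52 members in the order of the Dounce-Input value; open symbols were not called, both comparisons share the Tissue-Input libraries, and values where a group had at most 3 counts in every library are left out. Col19a1, at the top, lies at 3.04 and -3.56, Col8a2, at the bottom, at -2.61 and 3.8, and Col27a1 is high in both at 2.73 and 3.32.

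In the ribosome pulldown of Dounce cells the counts were more even. Dounce-TRAP had 14 of 46 tested members above Tissue-TRAP and 11 below it, with 50.3% of all genes called, 23.2% higher and 27.1% lower. It had 13 above and 16 below Cell-TRAP (-), with 28.7% of all genes called, 20.7% higher and 8.02% lower. Cell-TRAP (-) itself had 18 of 46 members above Tissue-TRAP and 13 below it, with a median of 0.28, where 53.2% of all genes were called, 22.3% higher and 30.8% lower, with a median of -0.13. Against Tissue-TRAP, Col6a3 was higher by 2.51 ± 0.208, Col27a1 by 2.07 ± 0.135 and Col15a1 by 1.46 ± 0.143. Col27a1 was at 85.2, 91.6, 107 and 126 CPM in Dounce-TRAP. Against Dounce-Input, 7 members were higher in Dounce-TRAP and 23 lower, with 47.5% of all genes called, 20.8% higher and 26.7% lower. Lamb2 was among the higher, at 35.1, 29.7, 28.4 and 30.5 CPM (1.54 ± 0.196, adjusted p = 3.68e-08), with Col15a1 (1.93 ± 0.166), Col6a3 (1.59 ± 0.228) and Col27a1 (1.16 ± 0.155, and no longer called at 0.93 with DESeq2 size factors or at 0.83 without the TRAP library of mouse 181). With the mouse as a block 22 of 45 members were called there, and the share of all genes under the block is not given here. With size factors 4 were higher and 28 lower, while over all genes 3301 higher and 4244 lower became 2709 and 5171.

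Transcription and translation inhibitors in the enzyme mix made no member pass the test. In Input 0 of 53 members were called between Cell-Input (+) and Cell-Input (-), where 0.311% of all genes were called, the member median was -0.07, 2 members had an unadjusted p under 0.05 and DESeq2 called 0. The log2 differences ran from -1.28 ± 0.535 for Col22a1 to 0.52 for Col28a1, the latter at few counts. In TRAP 0 of 46 were called (0.638% of all genes), 0 had an unadjusted p under 0.05 and DESeq2 called 0, and with the mouse as a block 1 was, Col7a1 at -1.27 (adjusted p = 0.0779), which stood at -1.28 ± 0.792 without it. In Input, Col4a1 was at 106, 95.7, 155 and 107 CPM without inhibitors. Per kilobase its mean ± SD was 15.5 ± 3.58 CPM without and 16.4 ± 5.14 CPM with inhibitors, which overlapped. Col27a1 was at 89.3, 109, 73.8 and 79.6 CPM without and 83.9, 96.9, 86.6 and 111 CPM with them. The groups overlapped for Col27a1.

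Few members were called in comparisons of sorts with each other. As compared with autoMACS alone, the Input of cells that were sorted again on the Tyto had 1 of 53 members called, Lamc3, whose 3 libraries were at 0 after the second sort, where 1.96% of all genes were called, 0.483% higher and 1.48% lower, and 10 members had an unadjusted p under 0.05. Without the autoMACS library of mouse 66 there were 5 calls, and without that of mouse 67 or 73 there were 2. Between Tyto-Input and FACSAria-Input 2 were called, both lower in Tyto, where 0.476% of all genes were called, 0.349% higher and 0.127% lower, and 12 had an unadjusted p under 0.05. Col18a1 was at 1.11, 1.62, 0.770, 1.34 and 0.964 CPM after Tyto and at 2.15, 7.13, 1.59 and 6.16 CPM after FACSAria (-1.9 ± 0.418, adjusted p = 0.0559). Col5a2 was at 0.336 to 0.954 CPM and at 1.10 to 2.48 CPM (-1.62 ± 0.373, adjusted p = 0.0742). With the mouse as a block neither was called, at -1.85 (adjusted p = 0.438) and -1.14 (adjusted p = 0.837), and leaving out 1 library gave 0 to 3 calls. There were 0 calls without the Tyto library of mouse 991 or 822, and 1 without that of mouse 823 or the FACSAria library of mouse 992 or 69.

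In the suspension most members were lower in TRAP than in Input. Cell-TRAP as compared with Cell-Input had 3 members higher and 35 lower, with a median of -1.78 and 47.6% of all genes called, 16.8% higher and 30.9% lower. The sorted TRAP libraries had 0 higher and 25 lower against the sorted Inputs, with a median of -1.46 and 18.9% of all genes called, 0.0758% higher and 18.8% lower. The 3 higher members were Col6a3 (2.56 ± 0.192), Col15a1 (2.28 ± 0.118) and Col27a1 (2.22 ± 0.115). They were also the 3 higher ones in both Cell groups of the preparation comparison, where 43 members were lower without inhibitors and 42 with them (47.3% and 45.6% of all genes called, 36.7% and 35.8% lower and 10.6% and 9.71% higher). The laminins were spread, with Lamb1 at -3.56 ± 0.490, Lama2 at -2.48 and Lamc1 at -1.32 lower in Cell-TRAP and Lamb2 at -0.57 ± 0.120 not called. Lamb1 was at 1.69, 1.81, 1.24 and 2.19 CPM in Cell-TRAP. In sorted cells Lamb2 (0.45 ± 0.0633), Lamc1 (0.36), Col6a3 (0.28), Col15a1 (0.14) and Col27a1 (-0.29) were inside the fold threshold, and Col4a1 (-1.78 ± 0.218), Lama4 (-2.14) and Col1a2 (-1.97) were below. The sorted TRAP medians of Col4a1, Lama4 and Col1a2 were low, at 1.65, 0.125 and 0.839 CPM. For Lama4, 9 of 16 of these libraries had at most 3 counts. With the mouse as a block 16 of the 30 members that could be tested were lower in sorted TRAP than in sorted Input, with no share of all genes beside it.

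The log2 fold change from tissue to suspension differed between Input and TRAP for 24 members. It was higher in TRAP for 1 and lower for 23. Of all genes 35.3% passed this test of the difference itself, 5.74% higher in TRAP and 29.5% lower. A lower value can be a smaller rise, a larger fall or a change of direction. With the mouse as a block 33 members passed, 1 higher and 32 lower, and the share of all genes under the block is not given here. In TRAP alone 14 of 49 members were higher in Cell than in Tissue and 16 lower (54.3% of all genes called, 25.1% higher and 29.3% lower), against 34 and 6 in Input. The member with the higher log2 fold change in TRAP was Col6a3, at 51.5, 49.8, 59.7 and 60.8 CPM in Cell-TRAP against 4.42, 5.66, 5.21 and 6.60 CPM in Tissue-TRAP. The difference of its log2 fold changes, TRAP minus Input, was 1.83 ± 0.291 (adjusted p = 1.44e-06). Col27a1 rose by 3.93 ± 0.110 in TRAP and by 3.84 ± 0.135 in Input. Col23a1, which was higher in Cell-Input, was lower in Cell-TRAP than in Tissue-TRAP at log2 -1.26 ± 0.277, and Col6a1 was lower there at -1.60 ± 0.403.

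Genes that make, bind and cut these proteins followed in part. From Tissue-Input to Cell-Input, 14 of 20 tested genes of collagen biosynthesis were higher and 1 lower, 8 and 1 of 12 basement membrane partners, 11 and 0 of 14 receptors and 8 and 1 of 15 matrix proteases and inhibitors, with medians of 1.58, 1.88, 2.09 and 1.54, where 28.5% of all genes were higher and 17.5% lower. From Cell-Input to Tyto-Input the counts were 4 higher and 12 lower, 1 and 10, 3 and 10, and 3 and 10, with medians of -1.35, -4.44, -4.43 and -3.95, where 17.2% of all genes were higher and 34.7% lower. Serpinh1, the chaperone of the collagen helix, went from 24.3 to 148 and then to 3.88 CPM on average, and Hspg2, the core of perlecan, from 6.02 to 52.3 and 3.16 CPM. P4ha1 and P4hb, the subunits of prolyl 4-hydroxylase, instead went from 43.7 to 164 and 417 CPM and from 89.0 to 253 and 508 CPM, and Sparc, a collagen-binding protein that microglia are known to make, from 623 to 1699 and 4691 CPM. Among the receptors, Itgb1 and Itga6, which pair as a laminin receptor, went from 42.2 to 231 and 577 CPM and from 4.43 to 127 and 363 CPM, and Lair1, an inhibitory collagen receptor of leukocytes, from 4.10 to 69.8 and 619 CPM. The collagen receptor Ddr1 ended at 5.03 CPM after 239 CPM in the suspension. Between Tissue-Input and Dounce-Input the 4 groups gave 6 and 4, 2 and 2, 5 and 1, and 4 and 3 genes higher and lower, with medians from -0.17 to 0.62, against 28.7% and 21.4% of all genes.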

How the data were processed

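RNA-Seq was run on 80 Input and TRAP libraries of mouse brain. The authors trimmed reads and aligned them with strand to mm10, removed duplicates and quantified reads per gene in Strand NGS, so the deposited values are estimated counts, of which 60.2% (sort comparison) and 22.0% (preparation comparison) of the members' values were whole. The authors also deposited log2 values normalized with DESeq2, which were not used here, nor was an earlier table of 24 of the preparation libraries. The submitters' processing notes name mm10 and DESeq2. Estimated counts were rounded, and duplicate removal can lower the counts of abundant transcripts.

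Groups came from the labels. Each comparison was fitted over all genes with more than 5 counts in every library of at least 1 group, by edgeR 4.0.16 quasi-likelihood tests in R 4.3.3 (TMM factors, Benjamini-Hochberg adjusted p under 0.1 and fold over 2, the study's thresholds). Alternatives were DESeq2 1.42.0 size factors and Wald tests, other count filters, the mouse as a block and leaving out each library. The tests were first checked on simulated counts. The same mouse number means the same animal in the library names. Same-mouse libraries had mean correlations of deviations of 0.006 to 0.40 and others of -0.131 to -0.002, and the blocked fit is an alternative. Counts of members under the block, the Wald test, other filters and left-out libraries stand without the share of all genes under that setting. The smallest depth, 2471448 counts, and the share of the members limit the precision of low genes, and intervals for counting error were not computed.

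Any member could be named, except 1 that is counted but not reported by name here. Every library's value was planned for 20 chains of the main networks and for any member at 5 CPM or more in all sorted Input groups, with the 5 largest called changes of a comparison. The members and lists were chosen with earlier results of these data known. CPM used TMM factors over all libraries of a table, and exon lengths were those of the union of exons in GENCODE gene models on GRCm38, the assembly of mm10. With size factors the median of all genes shifted by -0.20 to -0.22 in sorted Inputs against Cell-Input, -0.33 in Cell-TRAP against Tissue-TRAP, -0.35 in sorted TRAP against Tissue-TRAP, -0.41 in Cell-TRAP against Cell-Input, -0.32 in the difference of changes, -0.23 in Dounce-TRAP against Dounce-Input and 0.12 to 0.13 in the preparation Cell groups. The split over all genes of 3751 higher and 4375 lower in Cell-TRAP against Tissue-TRAP became 2811 and 5210, 3873 and 5520 in sorted TRAP against Tissue-TRAP became 2947 and 6149, 2652 and 4883 in Cell-TRAP against Cell-Input became 1577 and 5934, and 909 and 4670 in the difference of changes became 319 and 5777.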

Additional observations from a re-analysis of the deposited data

Results flagged for a closer look

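Among 342 groups of 4 or 5 libraries of 22 members with a mean of 1 CPM or more, 22 held a library that stood far from the rest by Dixon's criterion, and chance alone gives about 1 in 20. Col6a3 was high in the autoMACS-Input library of mouse 73 at 96.2 CPM, in the FACSAria-TRAP library of mouse 69 at 115 CPM and in the Cell-TRAP (-) library of mouse 1362 at 72.6 CPM. Among the basement membrane chains, Col4a1 stood out at 31.1 CPM in the Dounce-TRAP library of mouse 181 and at 22.1 CPM in the preparation Tissue-Input library of mouse 949, Col4a2 and Lama5 at 115 and 65.9 CPM in the Cell-Input (-) library of mouse 1361, and Lama5 at 3.26 CPM in the FACSAria-TRAP library of mouse 991. Lamc1 was low at 12.4 CPM in the Dounce-TRAP library of mouse 181 and high at 31.2 CPM in the Tyto-TRAP library of mouse 69, and Lamb1 was low at 12.8 CPM in the Tissue-TRAP library of mouse 947. Col1a1 and Col1a2 were at 3.64 and 2.89 CPM in the FACSAria-TRAP library of mouse 992, and Col1a2 was at 8.32 CPM in the Tyto-Input library of mouse 69. Col6a1 and Col6a2 were at 40.5 and 11.7 CPM in the preparation Tissue-TRAP library of mouse 947, and Col6a2 was at 11 CPM in the Cell-TRAP (+) library of mouse 156. The other values were 8.18 CPM for Col14a1 in Tyto-Input (mouse 823), 11.9 CPM for Col23a1 in Cell-TRAP (-) (mouse 156), 13.3 CPM for Col23a1 in Tissue-Input (mouse 949), 3.69 CPM for Col25a1 in Cell-TRAP (+) (mouse 1361) and 33.1 CPM for Col25a1 in Tissue-TRAP (mouse 946).

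The change from tissue to suspension differed between TRAP and Input, by the test of that difference itself, for 24 members. The log2 fold change was higher in TRAP than in Input for Col6a3, by 1.83. It was lower in TRAP for 23 members, among them the laminins Lamb1 (-2.97) and Lama1 (-1.53) and the type IV chains Col4a3 (-2.89), Col4a4 (-2.68) and Col4a6 (-2.08). These differences are signed, so a negative one can also be a larger fall in TRAP. In the fibrillar and type VI groups the differences were -1.88 for Col1a2, -1.19 for Col1a1, -2.36 for Col11a1, -3.00 for Col6a5, -2.36 for Col6a1 and -2.15 for Col6a2. For type VIII they were -3.37 for Col8a1 and -2.59 for Col8a2, and in the fibril-associated group -3.53 for Col9a1, -2.75 for Col12a1, -2.26 for Col20a1, -1.96 for Col9a3, -1.54 for Col9a2 and -1.34 for Col16a1. The transmembrane collagens Col23a1, Col17a1 and Col25a1 were at -2.98, -2.52 and -1.20. The calls of Lama1 and Col1a1 were lost without any 1 of 10 (adjusted p = 0.1 to 0.165) and 7 libraries (0.102 to 0.154). Without the Tissue-TRAP library of mouse 947, Col4a3 was at -1.69 (adjusted p = 0.251) and Col6a5 at -1.91 (0.273), and Col6a5 was also lost without the Cell-TRAP library of mouse 949 (0.107). With the DESeq2 Wald test Col9a1 and Col6a5 had an adjusted p of 0.151 and 0.138.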

How the results depend on the processing

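Calls in which 1 side of the comparison had at most 3 counts in every library were left out of this count. Of the 685 other calls of single members, 669 held with DESeq2 size factors and 662 with the DESeq2 Wald test. With no further filter 684 held, and 602 held in every leave-out of 1 library. None reversed under these settings. The requirement of at least 10 counts in every library left 6 to 32 members testable. It kept only members well counted in every group of a fit. The shares of all genes called under it are not given here, so the counts that follow have no background beside them. Calls then numbered 11 of 11 testable members for Cell-Input against Tissue-Input and for each sorted Input against Cell-Input. They numbered 8 of 8 for Cell-TRAP against Tissue-TRAP, and 0 and 6 of 8 for sorted TRAP against Cell-TRAP and Tissue-TRAP. For autoMACS to Tyto against autoMACS and for Tyto against FACSAria they numbered 0 of 11. In the preparation comparison they numbered 27 of 32 for Cell-Input (-) against Tissue-Input. Dounce-Input gave 15 and 19 of 32 against Tissue-Input and Cell-Input (-). Calls numbered 11 of 14 for Cell-TRAP (-) against Tissue-TRAP and 7 of 14 for Dounce-TRAP against either. Between TRAP and Input they numbered 2 in Tissue, 6 in Cell, 0 in sorted cells and 2 for the difference of changes, each of 6. In Tissue, Dounce, Cell (-) and Cell (+) of the preparation comparison they numbered 3, 9, 12 and 12 of 14. With size factors there were 2 calls between autoMACS to Tyto and autoMACS, where all genes had 80 higher and 243 lower. There were 11 in Tissue-TRAP against Tissue-Input of the sort comparison, where all genes had 1374 higher and 386 lower. With the Wald test there were 4 calls for each pair of sorts. The cause was not tested beyond the number of members testable.

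With the mouse as a replicate block, 257 of 275 testable calls held, where calls with a side at most 3 counts were again left out. Calls numbered 0 for both pairs of sorts, 1 for inhibitors in TRAP, 12 for Tissue-TRAP against Tissue-Input and 16 for sorted TRAP against sorted Input, and no other count moved by over 1.5 times. With 1 library left out, counts ran over 37 to 39 for Cell-Input against Tissue-Input, 45 to 47, 43 to 47, 48 to 50 and 44 to 48 for the 4 sorts against Cell-Input, 25 to 31 for Cell-TRAP against Tissue-TRAP, 1 to 5 for autoMACS to Tyto against autoMACS and 0 to 3 for Tyto against FACSAria. Few counts limit the low members, and 4 to 15 members had at most 3 counts in every Input library of a sort and 13 to 18 in every TRAP library. Leaving Lama3 out of the sum of the laminin alpha chains, chosen after seeing the data, kept the sorted Inputs below Tissue-Input on average.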

Other observations

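In the autoMACS-TRAP library of mouse 73, Lama4 had 17 counts and Lama2 had 7, and the other autoMACS-TRAP libraries had 0 of each. Between neighbouring genes of other kinds, Col9a1 and Col19a1 lay tail to tail 4945 bp apart on chromosome 1 and Col3a1 and Col5a2 24625 bp apart on the same chromosome.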
